A study of Mus musculus with 9 samples.

Results

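The trypsinogen gene cluster of mouse chromosome 6 was followed through RNA-seq counts of 9 whole pancreata taken from e18.5 embryos. Its 10 genes, Prss1, Prss2, Prss3, Try4, Try5, Try10, Gm5771, Gm10334, Gm5409 and 2210010C04Rik, were chosen by name from the 55453 gene symbols of the count tables and were all found there. The control embryos carried Pdx1:Cre, which puts a Cre recombinase under control of the promoter of Pdx1, a transcription factor of the early pancreas, and no Groucho allele is named in their labels. The other 2 groups are labelled Pdx1:Cre;Grg3 and Pdx1:Cre;Grg3Grg4, so Pdx1:Cre was shared by all groups, and they are called the Grg3 group and the Grg3Grg4 group below. Each group had 3 libraries, the strain is given as mixed, C57BL6, and the series describes the embryos as pancreas-specific Groucho mutants. Grg3 and Grg4, whose genes are Tle3 and Tle4, belong to the Groucho family of co-repressors, which have no DNA-binding domain of their own and are recruited by transcription factors.

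Trypsinogens are the inactive precursors of trypsin, the main digestive endopeptidase of the pancreas. Acinar cells make them, store them in zymogen granules and secrete them into the duct, and in the gut enteropeptidase cuts off a short activation peptide that ends in a run of acidic residues and a lysine. Trypsin then activates further trypsinogen and the other pancreatic proenzymes. Activation inside the pancreas is held in check by the inhibitor Spink1 and by degradation of trypsin by chymotrypsin C, and it is a known step in pancreatitis. The mouse genes arose by repeated duplication and lie within the T cell receptor beta locus, so several copies are nearly identical in sequence.

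In both groups labelled with Groucho alleles the summed trypsinogen level was lower than in the controls, at 47.6% of the control level in the Grg3 group and 47.2% in the Grg3Grg4 group. The decline was unequal among the copies. Prss3, Gm5771, Gm10334 and Prss1 fell, with log2 changes of -2.26 to -3.08, whereas Prss2, the anionic trypsinogen gene, was within 0.22 of its control level and did not pass the test. These 4 genes were also the closest relatives of each other in coding sequence.

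Depth and labels were checked over the whole series first. Gene counts summed to between 46817453 and 62744499 reads per library. Tle3 was higher, not lower, in the libraries labelled with Grg3, at 64.8 ± 2.50 CPM in the controls, 153 ± 12.1 in Grg3 and 135 ± 10.4 in Grg3Grg4 (SD, n = 3 each). Tle4 was not lower either in the libraries labelled with Grg4, at 7.77 ± 0.0855 CPM in the controls, 12.2 ± 2.10 in Grg3 and 11.6 ± 3.52 in Grg3Grg4, and all 6 labelled libraries were above the controls, but the log2 change of 0.65 and 0.58 did not pass (adjusted p = 0.132 and 0.155 by edgeR). CPM stands for counts scaled to a total of 1000000 gene counts after TMM (trimmed mean of M values) scaling. A count per gene does not show which exons remain and the labels do not say which part was altered. What the alleles do to these transcripts was not tested, and the groups are named below by their labels only. Xist marked control replicate 1, Grg3 replicate 1 and all 3 Grg3Grg4 libraries as male and the other 4 as female. The 7 acinar markers fixed for the tissue, Ptf1a and Cpa1 among them, were detected in every group, with a summed level of 196080 to 221030 CPM in the controls, 112960 to 207790 in Grg3 and 129980 to 150380 in Grg3Grg4. In whole organs fewer acinar cells and less trypsinogen RNA per cell cannot be told apart.

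The 10 genes span chr6:41030268-41525079 on GRCm38 (GENCODE M21 annotation), a stretch of 494.8 kb. 2210010C04Rik, known as the mouse cationic trypsinogen, lies apart at chr6:41030268-41035509 on the minus strand, and 266.8 kb with 33 annotated T cell receptor beta V segments separate it from the next member. There follow Try4 (chr6:41302269-41305532, plus strand), Try5 (chr6:41311233-41316841, minus), Try10 (chr6:41354105-41357914, plus), Prss3 (chr6:41373814-41377678, minus), Gm5771 (chr6:41392356-41397230, plus), Gm5409 (chr6:41416912-41419589, plus), Gm10334 (chr6:41442216-41446145, minus) and Prss1 (chr6:41458932-41463786, plus). Prss2 closes the cluster at chr6:41521787-41525079 on the plus strand, 58.0 kb beyond Prss1 and next to the D, J and C segments of the receptor locus. Of these genes 9 are annotated as protein coding, and Gm5409 is an unprocessed pseudogene. No member overlaps another annotated gene.

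Aligned coding sequences placed the copies into sequence families at a minimum identity of 95%, a limit set after the counts had been seen. Prss3, Gm5771, Gm10334 and Prss1 formed a family with 96.4% to 99.1% identity between its members. Within it Prss3 and Gm10334 differed at 7 of 741 aligned bases, and Gm5771 and Prss1 at 15 of 738. Try4, Try5, Try10 and Gm5409 formed the second family, with pairs between 93.3% and 97.7%, each linked to at least 1 other above the limit. The 2 families were 89.7% to 93.4% identical to each other. Prss2 stood alone, with Try4 as its nearest relative at 91.6%, and 2210010C04Rik was the most distant, at 75.1% to 76.3% from all others.

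**Figure D1:**
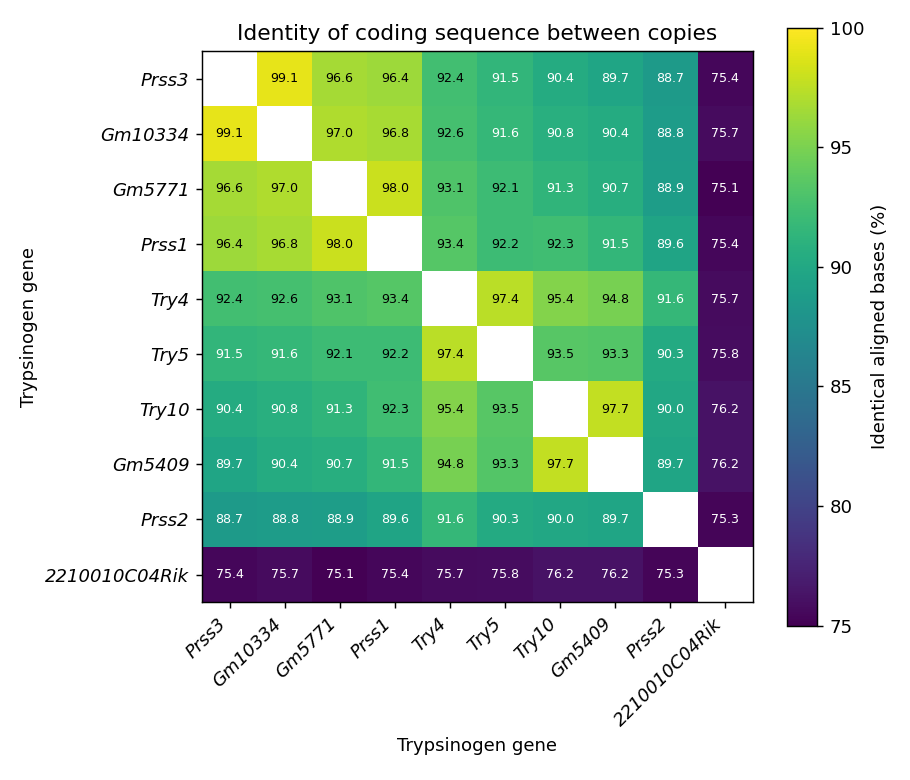
Percent of identical bases between the aligned coding parts of each pair of trypsinogen genes (colour scale from 75 to 100, transcript for the pseudogene Gm5409). Prss3, Gm10334, Gm5771 and Prss1 form a block above 96%, and 2210010C04Rik is near 75% to 76% with every other copy.

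The following stretch of 60 bases, coding bases 403 to 462 of Prss1 in the GENCODE M21 transcript, is shown because it separates the family of Prss1 from the other copies. It is letter for letter the same in Prss1, Prss3, Gm5771 and Gm10334. Capitals mark bases that differ from Prss1.
Prss1: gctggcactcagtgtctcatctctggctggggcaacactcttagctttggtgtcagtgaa
Try5: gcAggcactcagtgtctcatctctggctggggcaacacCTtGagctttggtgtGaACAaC
Try10: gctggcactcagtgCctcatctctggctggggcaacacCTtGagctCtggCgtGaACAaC
Prss2: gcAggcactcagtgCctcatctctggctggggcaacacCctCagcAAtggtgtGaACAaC
2210010C04Rik: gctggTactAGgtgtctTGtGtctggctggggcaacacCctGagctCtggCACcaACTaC
The stretch of Try4 is the same as that of Try5, with 9 differences from Prss1, while Gm5409 has 10, Try10 and Prss2 have 11 each and 2210010C04Rik has 16. Over the whole coding part there are 17 positions at which the 4 genes share a base found in no other member, 2210010C04Rik left out of account, and 7 of them lie in this window.

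The stretch that encodes the activation peptide and its cleavage point, in contrast, hardly differs among the copies. It is shown from coding base 40 of Prss1, with 30 bases before the point at which trypsinogen is cut and 12 after it. Capitals mark bases that differ from Prss1 or are added.
Prss1: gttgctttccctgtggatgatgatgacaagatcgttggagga
Gm5771: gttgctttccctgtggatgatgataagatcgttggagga
Prss3: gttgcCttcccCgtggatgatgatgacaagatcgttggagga
Prss2: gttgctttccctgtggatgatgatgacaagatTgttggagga
2210010C04Rik: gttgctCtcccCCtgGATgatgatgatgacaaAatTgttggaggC
Try4 and Try5 have the same letters here as Prss1, and Gm10334 has those of Prss3. Gm5771 lacks 3 bases, which is a codon of the acidic run, and 2210010C04Rik has an additional one. The activation stretch therefore does not divide the copies in the way the whole coding part does.

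The likeness of the copies bears on how their reads could be counted. Of all 50-base windows of the Prss3 transcript, 66.1% occur letter for letter in a transcript of another gene, and the figure was 63.7% for Gm10334, 55.4% for Gm5771 and 54.9% for Prss1. For the other family it was 65.6% in Try4, 53.9% in Try5, 40.8% in Try10 and 31.3% in Gm5409. Prss2 shared 7.83% of its windows and 2210010C04Rik none. Reads aligned to several places were set apart in the deposited tables, where they made up 15.8% to 20.7% of a library's reads. In group means this share was 19.2 ± 1.40% in the controls, 18.0 ± 2.14% in Grg3 and 18.9 ± 1.23% in Grg3Grg4, and its ranges overlapped. The counts of single copies other than Prss2 and 2210010C04Rik are therefore uncertain, and how reads were divided within a family was not tested. Sharing with genes outside the own family was lower but not absent. Among the 8 family members it took 4.23% (Gm10334) to 19.3% (Prss1 and Try4) of 50-base windows and at most 2.43% of 100-base windows. Sums over a family are thus less open to this than its single members, by an amount that depends on the read length, which the sources used here do not give.

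The summed trypsinogen level was 41566, 45995 and 44009 CPM in control replicates 1, 2 and 3. It was 19813, 15365 and 27389 CPM in the Grg3 libraries and 18995, 18581 and 24462 CPM in the Grg3Grg4 libraries. The 3 controls lay close together and above all 6 others, and replicate 3 was the highest of each labelled group. Group means were 43857 ± 2218, 20856 ± 6079 and 20679 ± 3282 CPM (SD, n = 3 each), which is a log2 ratio to control of -1.07 and -1.08 and a ratio between the labelled groups of -0.01. The 10 genes made up 3.89% to 3.99% of all gene counts in a control library, 1.78% to 2.51% in Grg3 and 2.01% to 2.56% in Grg3Grg4.

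The 25 other acinar secretory genes that were listed, proenzymes and lipases among them, were compared as a second sum. They came to 397540 ± 28583 CPM in the controls, 294830 ± 90509 in Grg3 and 266320 ± 18506 in Grg3Grg4, a log2 ratio to control of -0.43 and -0.58. Trypsinogen as a percentage of that sum was 11.2, 10.7 and 11.2 in the controls, 6.66, 7.57 and 7.13 in Grg3 and 6.91, 7.58 and 8.77 in Grg3Grg4. The controls did not overlap with either group. The trypsinogen sum thus made up a smaller part of the acinar secretory RNA in both labelled groups, beyond the spread between these libraries. This holds for the sum and not for each copy. The log2 ratio to control was -2.49 and -2.82 for Prss3, Gm5771, Gm10334 and Prss1 together. It was -0.63 and -0.50 for Try4, Try5, Try10 and Gm5409 together, -0.95 in both for 2210010C04Rik, and -0.19 and -0.21 for Prss2.

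**Figure D2:**
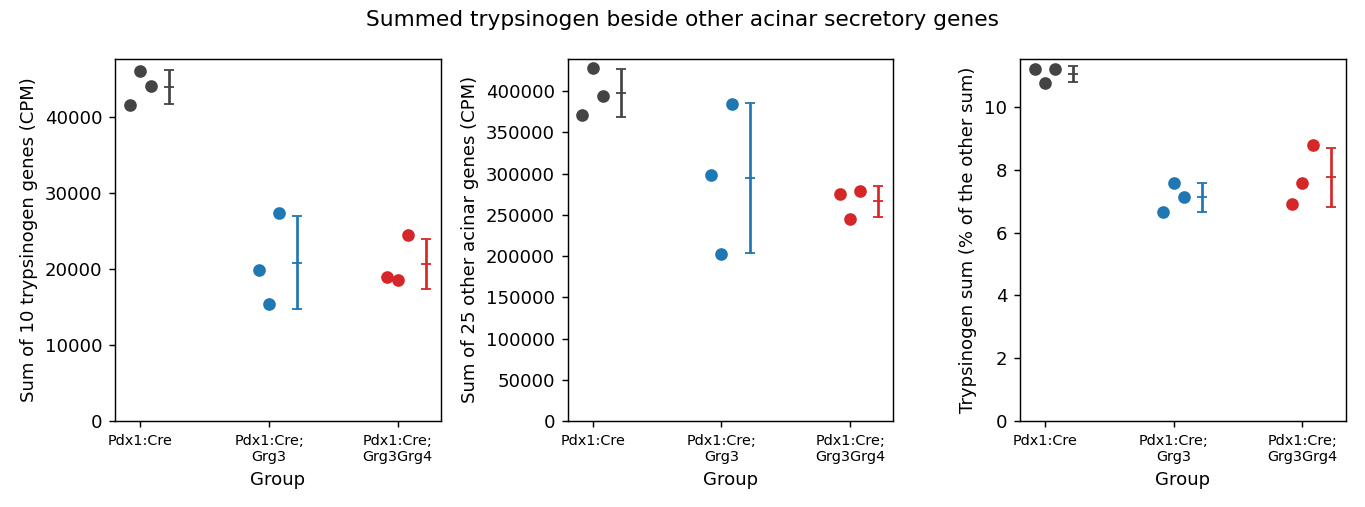
Summed TMM-scaled CPM of the 10 trypsinogen genes (left), of 25 other acinar secretory genes (middle) and the first as a percentage of the second (right), 1 point per library with mean ± SD beside it. All 3 controls lie above all 6 other libraries on the left and on the right, whereas in the middle the highest Grg3 library reaches the range of the controls.

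Single genes were tested with edgeR's quasi-likelihood F test over the 19166 genes that passed the filter on low counts, with Benjamini-Hochberg adjustment over all of them, and all 10 members passed that filter. In Grg3 against control, 6 of the 10 members were called lower at an adjusted p under 0.05 and none higher, where 0.694% of all genes tested were called lower. In Grg3Grg4 against control, again 6 were called lower and none higher, against 0.897% of all genes. The 6 were the same genes, Prss3, Gm5771, Gm10334, Prss1, Try4 and Gm5409, but both comparisons use the same 3 control libraries. The median log2 change of the 10 members was -1.21 and -1.17, beside 0.02 and 0.01 for all genes tested. Libraries did not overlap between the groups, with the controls higher, for 9 members in the first comparison and 8 in the second, where 12% and 14.2% of all genes did so in that direction.

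Prss1, the gene whose human namesake is mutated in hereditary pancreatitis, stood at 5621, 5785 and 5443 CPM in the controls. It stood at 866, 618 and 1311 CPM in the Grg3 libraries and at 843, 681 and 537 CPM in the Grg3Grg4 libraries. Every library of both labelled groups was far below the lowest control. The log2 change was -2.59 (SE 0.27, adjusted p = 0.0027 by edgeR) and -3.03 (SE 0.27, adjusted p = 8.07e-04).

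Prss3, on the opposite strand, had the highest mean of the family per exon length in each group. In the controls it did not differ from Prss1 beyond their spread. In Grg3Grg4 the 2 genes did not overlap, at 1295 ± 155 and 854 ± 190 CPM per kilobase of exon. Prss3 was at 5118, 6019 and 6209 CPM in the controls, at 1370, 692 and 1553 CPM in Grg3 and at 1211, 981 and 1002 CPM in Grg3Grg4. The groups did not overlap with the controls, and replicate 2 was the lowest Grg3 library. The log2 change was -2.26 (SE 0.27, adjusted p = 0.00639 by edgeR) and -2.44 (SE 0.27, adjusted p = 0.00321).

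Gm5771, a trypsinogen gene model with a full coding part that lacks a codon of the activation stretch shown above, had log2 changes whose difference from those of Prss1 and Gm10334 was smaller than their SE. Its levels were 2783, 3149 and 2878 CPM in the controls, 434, 279 and 609 CPM in Grg3 and 387, 320 and 335 CPM in Grg3Grg4. All 6 labelled libraries were far below the controls, and the Grg3Grg4 libraries were close to each other. The log2 change was -2.74 (SE 0.25, adjusted p = 0.00103 by edgeR) and -3.08 (SE 0.25, adjusted p = 4.78e-04).

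Gm10334, the near copy of Prss3, was at 2641, 3604 and 3255 CPM in the controls. It was at 499, 288 and 818 CPM in Grg3 and at 422, 357 and 380 CPM in Grg3Grg4. Again no library of a labelled group came near the lowest control, and the log2 change was -2.56 (SE 0.32, adjusted p = 0.007 by edgeR) and -3.03 (SE 0.33, adjusted p = 0.00278).

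Summed, the family of Prss1 stood at 16163, 18556 and 17786 CPM in the controls, at 3169, 1877 and 4291 CPM in Grg3 and at 2863, 2339 and 2255 CPM in Grg3Grg4. The means were 5.62-fold and 7.04-fold lower than in the controls, and the family held 62.6% and 64.8% of the CPM by which the trypsinogen sum declined. Among the male libraries the control had 16163 CPM, the Grg3 library 3169 and the 3 Grg3Grg4 libraries 2255 to 2863. Among the female libraries the 2 controls had 18556 and 17786 CPM and the 2 Grg3 libraries 1877 and 4291. The labelled libraries were thus below the controls within each sex, with no female library in the Grg3Grg4 group. The 4 genes lie in a stretch of 90.0 kb between Try10 and Prss2, with the pseudogene Gm5409 among them.

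**Figure D3:**
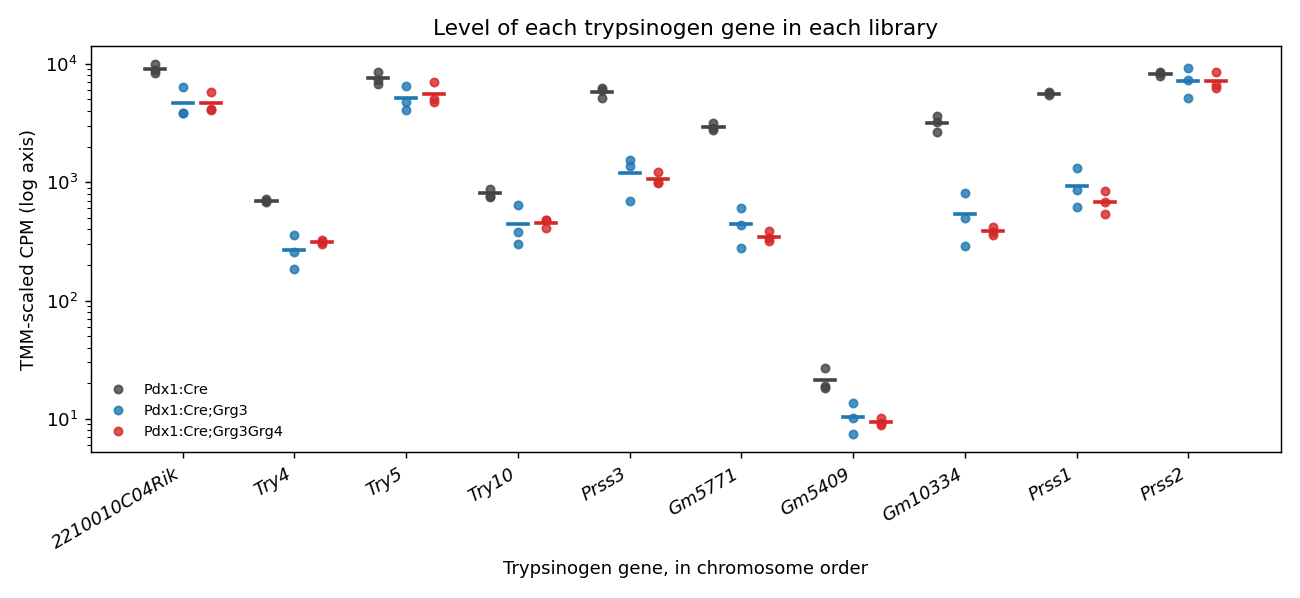
TMM-scaled CPM on a log axis of each trypsinogen gene in chromosome order, 1 point per library and a bar at the mean of the 3 libraries of a group. For Prss3, Gm5771, Gm10334 and Prss1 the labelled groups lie several-fold below the controls, and for Prss2 the 3 groups overlap.

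Values in the second family differed less from the controls. Try4 was at 721, 695 and 681 CPM in the controls, at 260, 187 and 360 CPM in Grg3 and at 324, 302 and 314 CPM in Grg3Grg4. The groups did not overlap, and the log2 change was -1.38 (SE 0.19, adjusted p = 0.0124 by edgeR) and -1.16 (SE 0.19, adjusted p = 0.0195). The calls did not hold in every alternative, although the log2 change stayed at -1.17 to -1.65 and at -1.13 to -1.19. The first was lost without control replicate 2 or 3 or Grg3 replicate 1 (adjusted p up to 0.0656), and the second without any 1 of the 3 controls, without Grg3Grg4 replicate 1 or 2, or with embryo sex as a term (adjusted p up to 0.124).

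Try5, the most abundant member of this family, did not pass the test. It was at 6696, 7362 and 8535 CPM in the controls, at 4779, 4071 and 6524 CPM in Grg3 and at 5038, 4797 and 6981 CPM in Grg3Grg4. The first labelled group lay just below the lowest control and the second overlapped with it, with a log2 change of -0.56 (SE 0.22, adjusted p = 0.205 by edgeR) and -0.43 (SE 0.22, adjusted p = 0.307). The activation stretch of Try5 is that of Prss1, letter for letter.

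Try10 was at 754, 884 and 771 CPM in the controls, at 383, 303 and 640.1 CPM in Grg3 and at 478, 408 and 480 CPM in Grg3Grg4. No library of a labelled group reached the controls, but the log2 change of -0.86 (SE 0.23, adjusted p = 0.0963 by edgeR) and -0.82 (SE 0.23, adjusted p = 0.0922) did not pass. It passed in 3 and 6 of 18 alternatives. In both comparisons it passed without the filter, by DESeq2 and without Grg3 replicate 3. In the second it also passed by limma voom, without Grg3 replicate 2 and from only the 6 libraries compared.

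Gm5409, the pseudogene, was counted at 18.4, 19.0 and 27.0 CPM in the controls, at 10.1, 7.47 and 13.6 CPM in Grg3 and at 8.94, 9.17 and 10.3 CPM in Grg3Grg4. It held about 0.05% of the sum in each group. Its log2 change of -1.05 (SE 0.22, adjusted p = 0.0495 by edgeR) was at the threshold and was lost in 11 of 18 alternatives, among them the fits without any 1 of the controls, without Grg3 replicate 1 or 2 and without Grg3Grg4 replicate 1 or 3. The change of -1.18 (SE 0.22, adjusted p = 0.029) was lost in 7 of 18, namely without any 1 of the controls or of the Grg3Grg4 libraries and with sex as a term. Although it lies amid the 4 genes that declined most, its sequence was that of the second family. The log2 changes of the other members of that family were -1.38 and -1.16 for Try4, -0.86 and -0.82 for Try10 and -0.56 and -0.43 for Try5.

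Prss2 was at 8356, 8587 and 7873 CPM in the controls. It was at 7375, 5097 and 9228 CPM in Grg3 and at 6220, 6568 and 8599 CPM in Grg3Grg4. Replicate 3 of each labelled group lay above the highest control, so the groups overlapped. The log2 change was -0.19 (SE 0.22, adjusted p = 0.679 by edgeR) and -0.21 (SE 0.22, adjusted p = 0.637), and without Grg3 replicate 2 the first was 0.0055.

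2210010C04Rik was at 8859, 9891 and 8338 CPM in the controls, at 3838, 3823 and 6333 CPM in Grg3 and at 4064, 4157 and 5824 CPM in Grg3Grg4. All 6 libraries were below the controls, yet the log2 change of -0.95 in both (SE 0.23 each, adjusted p = 0.0757 and 0.0666 by edgeR) did not pass. It passed in 4 and 6 of 18 alternatives. In both comparisons it passed without the filter, by DESeq2, by limma voom and without Grg3 replicate 3. In the second it also passed without Grg3 replicate 2 and from only the 6 libraries compared. Since no window of 50 bases is shared with another gene, its count is the least affected by the copies.

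**Figure D4:**
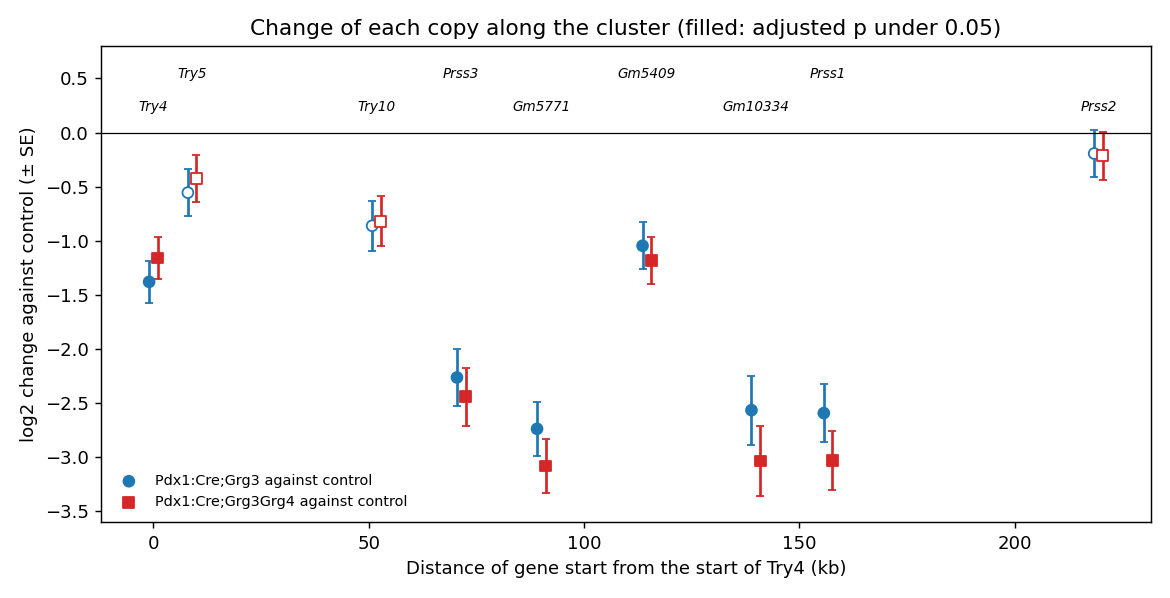
log2 change against control with its SE for 9 members, placed by the distance of their start from that of Try4 in kb (2210010C04Rik, which lies far to the left, is left out); filled symbols passed the test at an adjusted p under 0.05. The 4 genes of the family of Prss1 lie between -2.26 and -3.08, Gm5409 among them near -1.05 to -1.18, and Prss2 at the far end near -0.2.

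The make-up of trypsinogen RNA differed with them. Shares were taken from the deposited counts within each library, so that they do not depend on library scaling. Prss2 held 20.1%, 18.7% and 17.9% of the sum in the controls, 37.2%, 33.2% and 33.7% in Grg3 and 32.7%, 35.4% and 35.2% in Grg3Grg4. By count it came behind 2210010C04Rik in the controls and ahead of every other copy in both labelled groups. The family of Prss1 together held 38.9%, 40.3% and 40.4% in the controls, 16.0%, 12.2% and 15.7% in Grg3 and 15.1%, 12.6% and 9.22% in Grg3Grg4. In both cases the groups did not overlap with the controls, and the 2 labelled groups overlapped with each other.

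Within that family the mean share of Prss3 was 13.2 ± 0.90%, 5.70 ± 1.20% and 5.25 ± 1.14% in controls, Grg3 and Grg3Grg4 (SD, n = 3 each). Prss1 had 12.8 ± 0.62%, 4.39 ± 0.38% and 3.43 ± 1.14%. Gm10334 had 7.20 ± 0.76%, 2.46 ± 0.56% and 1.90 ± 0.33%, and Gm5771 had 6.69 ± 0.15%, 2.08 ± 0.23% and 1.71 ± 0.33%. All 4 shares were lower in every labelled library than in any control.

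Try5 held 17.2 ± 1.93% of the sum in the controls, 24.8 ± 1.47% in Grg3 and 27.0 ± 1.41% in Grg3Grg4, with no overlap with the controls. Try10 had 1.83 ± 0.09%, 2.08 ± 0.22% and 2.22 ± 0.28%, Try4 1.60 ± 0.12%, 1.28 ± 0.06% and 1.54 ± 0.22%, and 2210010C04Rik 20.6 ± 1.43%, 22.5 ± 2.81% and 22.5 ± 1.21%. The shares of 2210010C04Rik overlapped between the groups. Against control, 5 shares were lower and 3 higher without overlap in Grg3, and 4 lower and 3 higher in Grg3Grg4. Where the libraries did not overlap, the exact permutation test of a share (2-sided) gave p = 0.1, which is the smallest that 3 against 3 libraries can give, so no share could pass at 0.05.

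**Figure D5:**
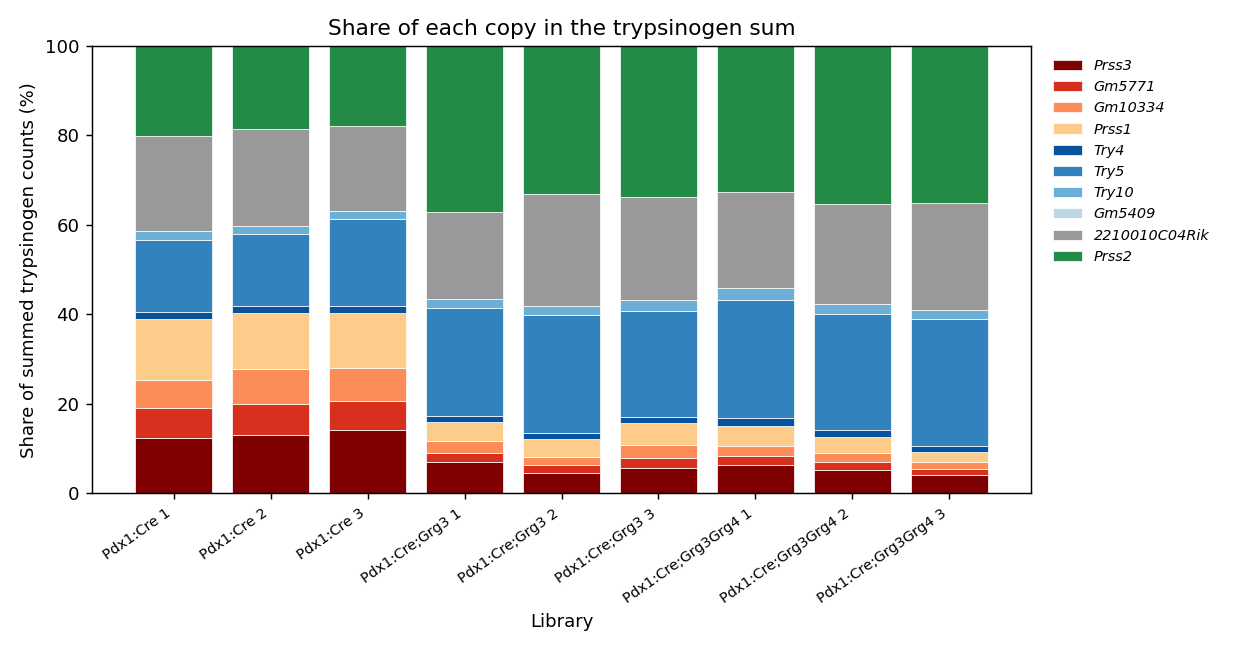
Share of each trypsinogen gene in the summed trypsinogen counts of each library in percent, stacked to 100, with the family of Prss1 in red tones, that of Try4 in blue, 2210010C04Rik in grey and Prss2 in green. The red part is 38.9% to 40.4% in the controls and 9.22% to 16.0% in the other 6 libraries, and the green part is larger there.

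Compared per exon length, as TMM-scaled CPM per kilobase of exon, Prss2 had the highest level in every group, at 10150 ± 447 in the controls, 8875 ± 2539 in Grg3 and 8747.5 ± 1576 in Grg3Grg4. Try5 followed with 8349 ± 1032, 5682 ± 1400 and 6214 ± 1328. In the controls Prss3 (7034 ± 709) and Prss1 (6977 ± 212) came next and did not differ beyond their spread, and 2210010C04Rik (4215 ± 369) with its longer exons was behind them. The divisor of 2210010C04Rik is an annotated length of 2142 bases with a coding part of 744. Whether all of it is expressed was not tested, and by count this gene was the highest in the controls. Gm5771 (3680 ± 237) and Gm10334 (3615 ± 557) followed without a difference beyond their spread, as did Try10 (934 ± 82.4) and Try4 (873 ± 25.5). In both labelled groups 2210010C04Rik moved up to the third place, with 2178 ± 675 and 2186 ± 462, above Prss3 with 1466 ± 551 and 1295 ± 155. The order between copies is limited by how reads were counted. Reads aligned to several places were set apart, while the full exon length was the divisor. Of 50-base windows, 66.1% of Prss3 and 54.9% of Prss1 but 7.83% of Prss2 and none of 2210010C04Rik occur in another gene's transcript. How far this lowers the levels of copies with shared windows was not tested.

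Between the 2 labelled groups, no member was called by edgeR in Grg3Grg4 against Grg3, where 0.188% of all genes were called in either direction. None had an unadjusted p under 0.05. The libraries of all 10 overlapped, where 21.1% of all genes did not, and neither DESeq2 nor limma voom called a member. The log2 changes ran from -0.47 for Gm10334 (SE 0.30, adjusted p = 0.448) to 0.22 for Try4 (SE 0.19, adjusted p = 0.584). For Prss1 the change was -0.44 (SE 0.25, adjusted p = 0.399). A p that misses the threshold does not show that the groups have the same level.

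Promoter sequences were compared because the 4 genes of the family of Prss1 declined together. RefSeq (GRCm38.p6) entries were matched by symbol for 7 of the 10 members, and Try5, Try10 and Gm5409 were not among them. Over aligned bases in the 250 before the start, Gm5771 and Prss1 were 98.3% identical, and Prss3 and Gm10334 were 97.0% identical. Between these pairs identity was far lower, for example 68.7% for Prss3 and Prss1 and 62.0% for Gm5771 and Gm10334, below the 80.8% between Try4 and Prss1. The family so close in coding sequence thus has 2 kinds of promoter sequence. Whether the promoter sequence bears on the decline was not tested.

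The 200 bases before the RefSeq start of Prss1 (chr6:41458730-41458929, plus strand), Prss3 (chr6:41377614-41377813, minus strand) and Prss2 (chr6:41521576-41521775, plus strand) are shown for the 2 kinds of promoter in the family that declined and for the copy that did not pass the test. Capitals mark the letters CANNTG, the E-box, and TGGGAA or its reverse complement, the 2 boxes known to be bound by the acinar complex PTF1 of Ptf1a and Rbpjl or Rbpj.
Prss1: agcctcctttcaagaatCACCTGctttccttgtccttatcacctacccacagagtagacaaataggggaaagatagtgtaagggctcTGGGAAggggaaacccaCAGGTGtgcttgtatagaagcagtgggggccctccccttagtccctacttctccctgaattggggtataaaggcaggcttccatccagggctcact
Prss3: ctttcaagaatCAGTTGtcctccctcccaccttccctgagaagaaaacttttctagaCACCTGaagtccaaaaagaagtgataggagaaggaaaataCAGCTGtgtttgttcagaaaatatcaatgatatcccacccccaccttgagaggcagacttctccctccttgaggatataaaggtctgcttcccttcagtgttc
Prss2: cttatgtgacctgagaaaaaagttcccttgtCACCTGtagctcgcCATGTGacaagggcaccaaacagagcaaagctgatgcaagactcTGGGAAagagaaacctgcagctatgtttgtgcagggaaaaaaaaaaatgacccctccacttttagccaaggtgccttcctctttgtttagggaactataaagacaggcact
Letters of CANNTG, on either strand, were found in the 250 bases of all 7 members and in 66.2% of 32851 promoters of the same length. TGGGAA, on either strand, was found in 4 of 7, namely 2210010C04Rik, Gm5771, Prss1 and Prss2, and in 21.6% of all promoters, and both motifs in the same 4 and in 14.8% of all. TATAAA was found in all 7, beside 7.59% of all promoters. Prss3 and Gm10334 have no TGGGAA in this window. TATAAA began at -31 in Prss1, -28 in Prss3, -16 in Prss2 and -11 in Gm5771 and Gm10334. The windows before the RefSeq starts thus do not cover the same stretch in each gene. Whether the motifs bear on the change of a gene was not tested. A match is a run of letters and not a shown binding site.

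Genes of the pathway were taken from lists. Of 13 tested genes that control trypsin activation or acinar secretion, Serpini2, a pancreatic serpin, was called lower in both comparisons and none was called higher. It was at 637 ± 68.1 CPM in the controls, 276 ± 59.4 in Grg3 (log2 change -1.20, SE 0.20, adjusted p = 0.0256 by edgeR) and 302 ± 72.7 in Grg3Grg4 (-1.08, SE 0.20, adjusted p = 0.0298). The first call was lost without control replicate 2 or 3 or Grg3 replicate 1, and the second without any 1 of the controls, without Grg3Grg4 replicate 1 or 2 or with sex as a term. The median log2 change of the list was 0.03 and -0.14. Over all genes tested, 0.694% and 0.897% were called lower.

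Spink1, the trypsin inhibitor stored with the zymogens, was at 611 ± 47.6, 704 ± 204 and 506 ± 48.2 CPM in controls, Grg3 and Grg3Grg4 and passed neither test against control (log2 change 0.20, SE 0.19, adjusted p = 0.603 by edgeR, and -0.27, SE 0.19, adjusted p = 0.467). Ctrc, which encodes the trypsin-degrading chymotrypsin C, was low at 6.33 ± 0.55, 5.21 ± 0.98 and 6.11 ± 1.11 CPM and did not pass. Ctsb, the lysosomal protease cathepsin B that can activate trypsinogen, was at 276.5 ± 16.7, 314 ± 19.4 and 262 ± 22.4 CPM and did not pass either. Ctsl, cathepsin L, which can inactivate it, was at 396 ± 7.06, 233 ± 69.6 and 276 ± 6.30 CPM, with log2 changes of -0.76 (SE 0.18, adjusted p = 0.0719) and -0.52 (SE 0.18, adjusted p = 0.149). Neither change of Ctsl passed, but each did in 4 of 18 alternatives, DESeq2 and limma voom among them. Tmprss15, the intestinal enteropeptidase, had 9, 1 and 4 reads over the 3 libraries of each group.

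The proenzymes that trypsin activates were lower in sign but mostly not past the test. Of 12 tested, 2 were called lower in each comparison and none higher, where 0.694% and 0.897% of all genes were called lower. The median log2 change of the 12 was -0.41 and -0.59. Ctrl, a chymotrypsin-like protease, had a decline of the size seen in the family of Prss1, from 3301 ± 290 CPM in the controls to 589 ± 191 and 512 ± 56.8 CPM. Its log2 change was -2.49 (SE 0.21, adjusted p = 8.13e-04 by edgeR) and -2.69 (SE 0.22, adjusted p = 4.69e-04), and it kept both calls in all 18 alternatives. Pla2g1b, the pancreatic phospholipase, was called as well, at -1.11 in both (SE 0.20, adjusted p = 0.0324 and 0.0277), although the calls were lost in 7 and 6 of 18 alternatives. The carboxypeptidase genes Cpa1 (-0.57, SE 0.25, adjusted p = 0.25 and -0.88, SE 0.25, adjusted p = 0.0952) and Cpb1 (-0.93, SE 0.28, adjusted p = 0.116 and -0.94, SE 0.28, adjusted p = 0.101) did not pass. Cpa1 passed in 0 and 5 of 18 alternatives and Cpb1 in 2 and 5.

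Of 13 other acinar secretory genes, 3 were called lower in Grg3 and 6 in Grg3Grg4, none higher, with a median of -0.82 and -0.78. Beside them 0.694% and 0.897% of all genes were called lower. Pnliprp2, a lipase, went from 2454.5 ± 265 CPM to 1057 ± 232 (log2 change -1.22, SE 0.17, adjusted p = 0.0111 by edgeR) and 1029.5 ± 75.2 CPM (-1.25, SE 0.17, adjusted p = 0.0084). Its first call was lost without control replicate 2 or 3 or Grg3 replicate 1, the second without control replicate 2 or with sex as a term. The others were Rnase1, the pancreatic ribonuclease, and Klk1, a kallikrein named after its value was seen, in both comparisons, and the granule proteins Zg16 and Sycn and the trefoil factor Tff2 in Grg3Grg4. Both calls of Rnase1 were lost in 9 of 18 alternatives, among them the replicate block, sex as a term and the fits without any 1 of the controls, with log2 changes of -0.87 to -1.31 and -0.97 to -1.12 throughout. Those of Zg16 and Sycn were lost in 6 of 18, without any 1 of the controls, without Grg3Grg4 replicate 1 or 2 or with sex as a term, and that of Tff2 in none. Whether the 2 comparisons differ in these genes is the comparison of the labelled groups, in which none of the 13 was called.

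Of the transcription factors of acinar cells, 9 were tested. Ptf1a, the acinar lineage factor, was at 37.6 ± 1.66, 49.2 ± 16.2 and 38.3 ± 2.59 CPM and did not pass in either comparison (log2 change 0.39, SE 0.20, adjusted p = 0.316 by edgeR, and 0.03, SE 0.20, adjusted p = 0.96). Its adult partner Rbpjl, at 542 ± 87.2, 544 ± 160 and 764 ± 70.4 CPM, and the nuclear receptor Nr5a2, at 83.6 ± 1.76, 66.9 ± 14.7 and 63.6 ± 11.0 CPM, did not pass either. Rbpj, the partner in early development and mediator of Notch signals, was the single call, lower in Grg3Grg4 (-1.09, SE 0.24, adjusted p = 0.0484), and it was lost in 8 of 18 alternatives, those without any 1 of the controls, without Grg3 replicate 3 and without Grg3Grg4 replicate 2 or 3 among them. None was called in Grg3, and the median of the list was -0.24 and -0.22. Over all genes tested, 0.694% were called lower in Grg3 and 0.897% in Grg3Grg4.

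Genes beside the cluster were followed to see whether neighbours moved with it. Of 16 found in the files, 3 (Moxd2, Trbv1 and Trbv31) had no read in any library and 9 passed the filter, and edgeR called none in either comparison with control. Kel, a blood group metalloprotease gene, was at 1.61 ± 1.39 CPM in the controls, 2.14 ± 2.22 in Grg3 and 5.58 ± 2.90 in Grg3Grg4. All 3 Grg3Grg4 libraries lay above the controls, and the log2 change of 1.80 (SE 0.85, adjusted p = 0.271 by edgeR) did not pass. The maltase gene Mgam was at 3.00 ± 1.05, 1.19 ± 0.74 and 1.86 ± 0.07 CPM, with every labelled library below the controls. Its log2 change of -1.33 (SE 0.41, adjusted p = 0.124 by edgeR) and -0.69 (SE 0.40, adjusted p = 0.373) did not pass, and DESeq2 called the first. Of the 9 tested, 5 had a log2 change above 0 in each comparison. Among the others, the calcium channel gene Trpv6 was at 2.89 ± 0.85, 3.42 ± 0.79 and 4.23 ± 0.81 CPM. The receptor constant gene Trbc2, next to Prss2, was at 15.8 ± 3.64, 20.4 ± 5.64 and 14.7 ± 5.23 CPM. The genes of the list summed to 40.8 to 51.1 CPM in the controls, 38.1 to 56.3 in Grg3 and 43.0 to 59.8 in Grg3Grg4.

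Markers of some other tissues moved with the groups. Of 10 hepatocyte markers 8, Alb and Afp among them, were called higher in both comparisons with control, and none of the 10 was at 0 throughout. Over all 19166 genes tested, 268 and 410 were called in either direction. The median log2 change of the 10 hepatocyte markers was 6.17 in Grg3 and 7.02 in Grg3Grg4 against control. Their sum was 212 to 226 CPM in the controls, 361 to 1778 in Grg3 and 832 to 2019 in Grg3Grg4. The trypsinogen sum declined by 23001 and 23178 CPM, but a sum of 10 markers does not give all RNA of a tissue. Alb was at 5.47, 2.37 and 2.49 CPM in control replicates 1, 2 and 3. It was at 636, 37.9 and 220 CPM in Grg3 replicates 1, 2 and 3 and at 257, 362 and 811 CPM in those of Grg3Grg4. The library with the least Alb, Grg3 replicate 2, had the lowest trypsinogen sum of the 6, whereas Grg3 replicate 1 had more Alb and less trypsinogen than replicate 3. In the Grg3Grg4 group, replicate 3 had the most Alb and the highest trypsinogen sum. Of 7 muscle markers none was called, with a median log2 change of 3.23 and 3.81. Their sum was 125 to 180 CPM in the controls, 321 to 914 in Grg3 and 223 to 2263 in Grg3Grg4. The smooth muscle gene Myh11 was at 21.5, 18.7 and 18.3 CPM in control replicates 1, 2 and 3. It was at 58.8, 204 and 66.7 CPM in Grg3 replicates 1, 2 and 3 and at 111, 227 and 38.5 CPM in those of Grg3Grg4. In both labelled groups the library with the most Myh11 had the lowest trypsinogen sum.

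Of 5 beta cell markers none was at 0, and none was called in Grg3 against control. In Grg3Grg4 against control Ins2, an insulin gene, and Mafa, a beta cell transcription factor, were called lower. Their log2 changes were -1.52 (SE 0.30, adjusted p = 0.0353 by edgeR) and -1.35 (SE 0.24, adjusted p = 0.0275), and 0.897% of all genes were called lower. None of the 5 was called between the labelled groups. The beta cell markers summed to 4231 to 4971 CPM in the controls, 2262 to 4186 in Grg3 and 1189 to 2605 in Grg3Grg4. Of 7 intestine markers Lgals4 and Clca1 were called higher in Grg3 against control and none in Grg3Grg4 against control. Clca1 was also called lower in Grg3Grg4 against Grg3, at a low level of 0.98 ± 0.24 CPM in Grg3. The intestine markers summed to 35.3 to 44.1 CPM in the controls, 20.9 to 41.5 in Grg3 and 31.2 to 38.6 in Grg3Grg4. No marker of duct, mesenchyme, endothelium, leukocytes, T lymphocytes, stomach or erythroid cells that was tested was called against control. The part of these tissues in the trypsinogen result was not tested.

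Over the 9 libraries the log2 level of single members correlated with that of the trypsinogen sum, of which they are part, with Pearson r from 0.731 for Prss2 to 0.978 for 2210010C04Rik. Among 11336 other genes with a mean of at least 5 CPM, the 5 most alike to the sum were Rnase1 (r = 0.995), Pnliprp2 (0.982), Wwc1 (0.980), Pkd1l2 (0.976) and Dagla (0.971). These r are descriptions over 9 libraries that share the grouping and the library scaling. Rnase1 and Pnliprp2 are acinar secretory genes. Rnase1 was at 7000 ± 519.6 CPM in the controls, 3364 ± 1022 in Grg3 and 3388 ± 314 in Grg3Grg4, with no overlap between controls and either group.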

How the data were processed

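Per the labels' protocols, whole pancreas was dissected, RNA was extracted with a Qiagen kit and libraries were made by standard Illumina protocols. Column 2 of each deposited table is a raw count of reads for a gene symbol, not normalized. Tools listed in the submitters' processing notes, with no role, include HISAT2 and HTSeq, and GRCm38 (mm10) is the build. Not given in the sources used here: annotation and strand setting. Rows that name no gene, 5 per table that name no gene (28.5% to 33.2% of reads) were left out of library sizes and tests.

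Counts were tested with edgeR 4.0.16 (glmQLFit, glmQLFTest, 2-sided) in R 4.3.3, with TMM scaling, filterByExpr (minimum count 10, total 15) and all 9 libraries in 1 fit with a mean per group. The SE is the size of the log2 change divided by the square root of F. The fit was tested on simulated data. The labels say only that there were 3 of each genotype, so p-values measure the spread between these libraries. No 2 libraries were repeats of each other (chi-square per degree of freedom within groups 17.1 to 193).

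Alternatives used DESeq2 1.42.0, limma 3.58.1, other scalings and filters, a replicate block, sex as a term and each library left out. Exact permutation tests used scipy 1.17.1. Sequences were aligned with Biopython 1.88, coding parts from GENCODE M21 transcripts and promoters from RefSeq. Members and lists were chosen with earlier results of these data known. The genes named are all members, up to 4 of each list with the smallest p in either comparison with control, Ptf1a, Spink1, Tmprss15, Ctrc, Ctsb, Tle3, Tle4 and the 5 genes most alike to the sum over the libraries (log2 CPM with a prior count of 2). Prss59 is not analysed here.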

Additional observations from a re-analysis of the deposited data

How the results depend on the processing

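Over 18 alternatives the number of members called lower was 4 to 9 in Grg3 and 4 to 8 in Grg3Grg4 against control, and 0 between the labelled groups. Leaving out single libraries gave 4 to 8, 4 to 8 and 0. Prss3, Gm5771, Gm10334 and Prss1 were called in all 18 in both comparisons, with log2 changes of -1.98 to -3.04 and -2.39 to -3.21. The calls of Try4 were lost in 3 and 6 alternatives and those of Gm5409 in 11 and 7. Calls of 2210010C04Rik were gained in 4 and 6, of Try10 in 3 and 6 and of Try5 in 1 and 0, while Prss2 was called in none.

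The summed ratio to control of Grg3Grg4 was -0.84 in plain CPM without TMM, and -0.91 for Grg3. Without single libraries the ratios were -1.32 to -0.89, -1.22 to -1.01 and, between the labelled groups, -0.19 to 0.23.

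The replicate numbers of the labels did not pair the libraries: correlations of same-numbered deviations were -0.086 to 0.094, none of 9 over 0.1, and a library correlated best with its own number in 6 of 18 lookups. With the replicate block 6 members were called in each comparison with control and 0 between the labelled groups, while calls over all genes went from 268 to 167, from 410 to 254 and from 36 to 11. Among the genes named, Rbpjl turned to -0.0192 with the replicate block and Kel to -0.0763 with sex as a term in Grg3 against control.

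Directions turned when single libraries were left out only for changes that were not called. In Grg3 against control these were Prss2 (-0.41 to 0.0055), Rbpj (-0.30 to 0.14), Rbpjl (-0.21 to 0.22) and Kel (-0.87 to 1.31). In Grg3Grg4 against control they were Trbc2 (-0.43 to 0.0886), Ptf1a (-0.0117 to 0.0801) and Ctrc (-0.21 to 0.0491). Between the labelled groups they were 2210010C04Rik (-0.18 to 0.29), Try5 (-0.0606 to 0.34), Try10 (-0.17 to 0.41), Prss3 (-0.46 to 0.0448), Gm5409 (-0.33 to 0.10) and Prss2 (-0.22 to 0.19). The cause was not tested.

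Counts over all genes depended on the tool: 268, 410 and 36 by the reported fit, 1463, 1553 and 1019 by DESeq2, 421, 1033 and 24 by limma voom, 169, 30 and 4 with sex as a term, 586, 930 and 228 without the filter, 255, 750 and 10 from the 6 libraries compared, and 32 to 327, 50 to 825 and 6 to 49 without single libraries. List counts varied as well: over the alternatives 0 to 2 and 0 to 3 of the trypsin control genes, 1 to 3 and 1 to 7 of the proenzymes, 0 to 9 and 1 to 9 of the other secretory genes, 0 to 1 and 0 to 2 of the transcription factors and 0 to 1 and 0 of the neighbours were called. The stricter filter gave 75 calls between the labelled groups.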

Other observations

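The annotation places 3 further trypsinogen-like pseudogenes in the cluster, which were chosen after the files were read. Over the 3 libraries of controls, Grg3 and Grg3Grg4, Gm37301 had 7, 2 and 2 reads, Gm38306 6, 8 and 5, and Gm38018 0, 0 and 1. These counts are too few for a comparison.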
